A study of Mus musculus with 18 samples.

Results

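The 37 genes described here are interferon-stimulated genes of the mouse: antiviral effectors, sensors of foreign RNA and DNA, and the STAT and IRF factors that switch them on. They were taken by symbol from the deposited count table, in which all 37 were present among 22238 gene symbols. All 37 also passed the filter on low counts, among 15494 genes tested. The list was chosen by gene symbol with earlier results of these data known, so its counts describe these genes and do not test an independent list.

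RNA was sequenced from whole uterus homogenate of ovariectomized adult CD-1 mice, an outbred stock whose ovaries had been removed so that ovarian hormones came from treatment alone. There were 6 groups of 3 libraries each. The mice had received DOX (doxorubicin, an anthracycline chemotherapy drug that damages DNA) with E2 (the estrogen estradiol), DOX with P4 (progesterone) or DOX with OIL (the hormone vehicle), or PBS (the drug vehicle) with E2, with P4 or with OIL. Doses, times and strand setting were not given in the sources used here, and the labels do not say whether replicates came from separate animals; the p-values speak for the spread among these libraries, which may be technical. Libraries held 18042357 to 39783785 counts, and levels are given as CPM, the usual scaling of counts to library size, here after adjusting for library composition. In RNA from whole tissue, fewer cells of a type and less RNA per cell cannot be told apart.

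Interferons are secreted proteins that bind receptors on the cell surface. Type I and type III receptors signal through the kinases JAK1 and TYK2 to a complex that holds STAT2 and IRF9 and binds the interferon-stimulated response element (ISRE), while interferon gamma acts through gamma-activated sites (GAS). The genes induced this way block viral replication, sense nucleic acids, present antigens and attract lymphocytes, and SOCS1, SOCS3 and USP18 damp the signal. In the uterus, interferon responses are known from defence of the mucosa and from early pregnancy.

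Promoters are shown first because these genes varied together between libraries and both motifs can be looked for in them. RefSeq start sites on build GRCm38.p6 gave windows from 250 bases before to 50 bases after the start for 29 of the 37 genes. The others were Mx1, Mx2, Oas2, Zbp1, Parp14, Rtp4, Usp18 and Dhx58. The ISRE core, GAAA followed by 2 bases of any kind and GAAA again, on either strand, was in the windows of 14 of 29 genes (48.3%), against 3.99% of the 27025 genes with a window. The palindromic GAS, TTCNNNGAA, was in those of 7 of 29 (24.1%), against 9.55%. The 6 windows below belong to the genes with a motif and the smallest p for DOX, averaged over the hormones or under E2. Of these genes, DOX lowered Irf1 and raised the others. The windows are written 5′ to 3′ on the gene's strand, and capitals mark the motif letters. The printed window of Irf1 (chr11:53769764-53770063, plus strand) holds a GAS that begins 90 bases before the start. Another window of Irf1 (chr11:53770223-53770522, plus strand) holds neither motif. That of Cxcl10 (chr5:92348840-92349139, minus strand) holds an ISRE core 213 bases before the start. That of Oas1a (chr5:120907476-120907775, minus strand) holds overlapping ISRE cores 20 and 14 bases before the start and a GAS 98 bases before it. That of Eif2ak2 (chr17:78882523-78882822, minus strand) holds a GAS 178 bases before the start and an ISRE core just after it. That of Bst2 (chr8:71537423-71537722, minus strand) holds a GAS at 136 bases before the start, which overlaps an ISRE core at 130 bases, and that core overlaps another at 124 bases. That of Ifit3 (chr19:34583279-34583578, plus strand) holds ISRE cores on the opposite strand at 156 and 122 bases before the start. A match describes letters only, and no binding was measured.
Irf1: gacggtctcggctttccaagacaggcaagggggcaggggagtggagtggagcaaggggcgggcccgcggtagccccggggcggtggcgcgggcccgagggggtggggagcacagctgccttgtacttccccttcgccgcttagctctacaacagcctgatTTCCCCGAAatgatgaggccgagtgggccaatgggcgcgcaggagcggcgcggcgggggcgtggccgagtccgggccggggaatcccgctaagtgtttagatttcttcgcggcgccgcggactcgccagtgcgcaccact
Cxcl10: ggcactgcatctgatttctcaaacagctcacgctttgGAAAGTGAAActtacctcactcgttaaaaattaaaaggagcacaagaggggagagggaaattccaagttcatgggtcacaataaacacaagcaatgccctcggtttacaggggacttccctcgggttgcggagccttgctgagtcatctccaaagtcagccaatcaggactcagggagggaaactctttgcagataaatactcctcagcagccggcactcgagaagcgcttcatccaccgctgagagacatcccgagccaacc
Oas1a: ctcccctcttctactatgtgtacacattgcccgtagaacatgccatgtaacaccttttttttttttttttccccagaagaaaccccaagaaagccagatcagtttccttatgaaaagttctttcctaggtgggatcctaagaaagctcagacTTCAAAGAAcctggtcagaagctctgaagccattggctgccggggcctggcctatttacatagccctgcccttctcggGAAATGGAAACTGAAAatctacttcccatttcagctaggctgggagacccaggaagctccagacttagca
Eif2ak2: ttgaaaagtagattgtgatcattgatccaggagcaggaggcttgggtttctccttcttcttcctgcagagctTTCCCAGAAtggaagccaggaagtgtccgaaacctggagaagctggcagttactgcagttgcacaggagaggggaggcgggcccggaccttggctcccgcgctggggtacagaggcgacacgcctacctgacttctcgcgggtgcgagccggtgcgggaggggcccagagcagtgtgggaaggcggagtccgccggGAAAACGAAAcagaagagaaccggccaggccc
Bst2: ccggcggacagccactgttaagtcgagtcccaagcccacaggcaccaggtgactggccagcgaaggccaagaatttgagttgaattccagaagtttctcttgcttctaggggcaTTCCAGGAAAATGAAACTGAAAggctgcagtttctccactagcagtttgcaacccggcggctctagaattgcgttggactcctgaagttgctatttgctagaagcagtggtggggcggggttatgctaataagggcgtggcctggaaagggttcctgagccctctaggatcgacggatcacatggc
Ifit3: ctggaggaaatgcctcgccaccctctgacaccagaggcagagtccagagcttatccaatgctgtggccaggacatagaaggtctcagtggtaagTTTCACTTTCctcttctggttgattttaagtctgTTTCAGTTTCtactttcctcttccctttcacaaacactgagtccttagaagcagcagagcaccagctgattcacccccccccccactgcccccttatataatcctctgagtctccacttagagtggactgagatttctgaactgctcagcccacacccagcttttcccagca

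**Figure D1:**
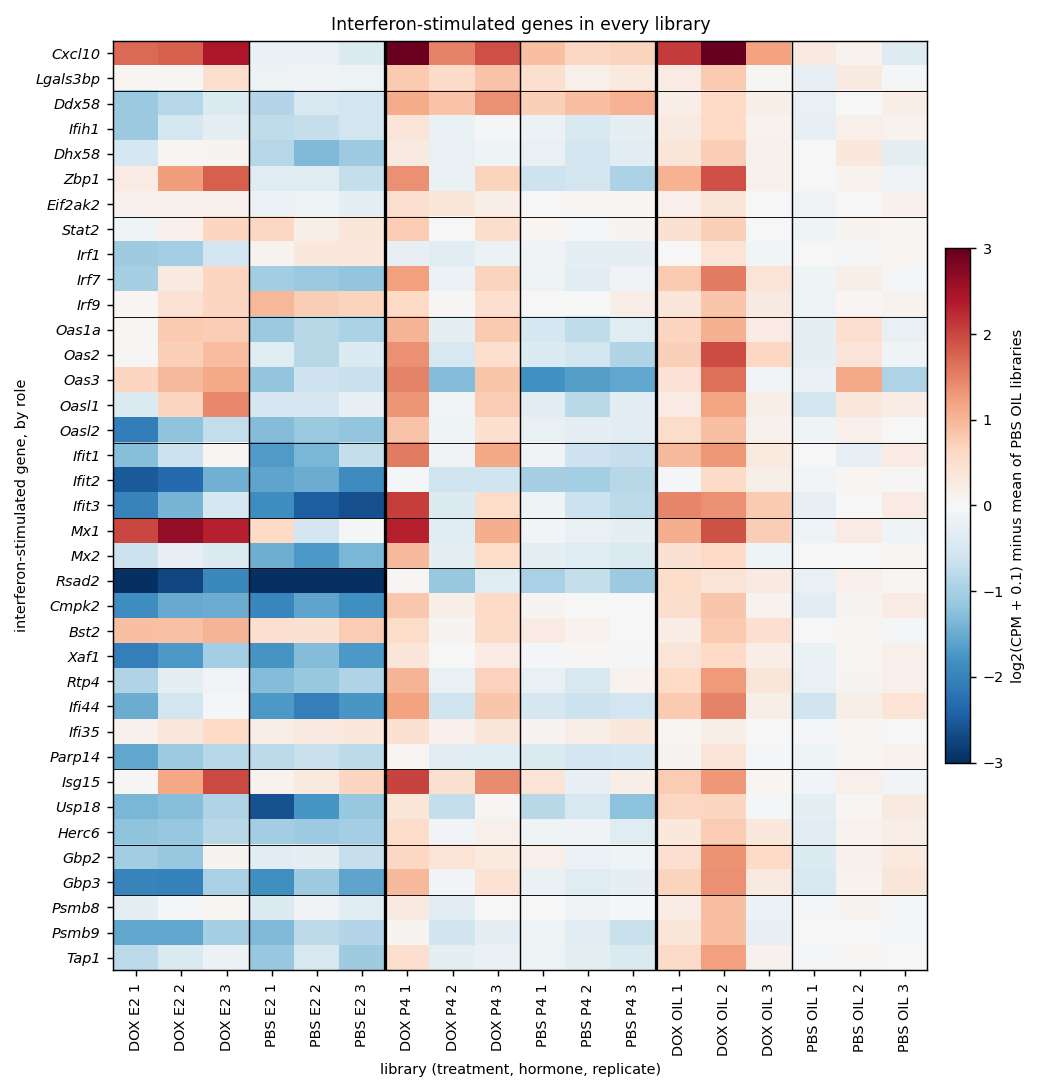
Each row is an interferon-stimulated gene, grouped by role, and each column a library; colour is log2(CPM + 0.1) minus the mean of the 3 PBS OIL libraries, with red above and blue below. Cxcl10 is red in all 9 DOX libraries, and Rsad2, Ifit2, Cmpk2 and Xaf1 are blue in all 6 E2 libraries.

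Under E2, DOX raised 13 of the 37 genes and lowered 1, Irf1. Of all genes tested, 41% were called in this comparison, 20.4% higher and 20.6% lower. The genes that rose were the chemokine Cxcl10, the myxovirus resistance GTPases Mx1 and Mx2, 4 of the 5 oligoadenylate synthetase genes, the sensors Zbp1, Dhx58 and Eif2ak2, the factor Irf7, and the effectors Rsad2 and Ifi44. At an unadjusted p under 0.05 in edgeR's quasi-likelihood test the count was 18 of 37 genes (48.6%), near the 49.3% of all genes. The log2 fold change was above 0 for 27 of the 37, against 52.1% of all genes, and its median was 0.35, against 0.02 over all genes. In 14 of the 37 every DOX E2 library was above every PBS E2 library, which held for 26% of all genes. Every DOX E2 library was below every PBS E2 library in Irf1, Irf9 and Parp14. DESeq2's Wald test called 16 of the 37 and 6609 of all genes, and limma voom 11 and 8619. Both also called Parp14, which had 31.1, 43.2 and 50.8 CPM in the DOX E2 libraries, against 53.1, 57.3 and 53.2 CPM in the PBS E2 libraries.

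Cxcl10 (5:92346638-92348889, minus strand, build GRCm38), which encodes a chemokine that attracts activated T cells, had 3.25, 3.51 and 5.50 CPM in the DOX E2 libraries, against 0.807, 0.813 and 0.681 CPM in the PBS E2 libraries. The groups did not overlap, and the log2 fold change was 2.40 ± 0.46 (SE), with an adjusted p of 0.000833 in edgeR's quasi-likelihood test with Benjamini-Hochberg adjustment over 15494 genes. Mx1 (16:97447035-97462907) is a myxovirus resistance GTPase gene, of which only the RNA was measured. It had 8.68, 13.5 and 11.0 CPM in the DOX E2 libraries, against 3.23, 1.41 and 1.99 CPM in the PBS E2 libraries. Its log2 fold change was 2.29 ± 0.51 with an adjusted p of 0.00249, and again every DOX library was above every PBS library. Oas1a (5:120896256-120907521), a member of the family that makes oligoadenylate to activate RNase L, had 6.77, 11.6 and 11.1 CPM in the DOX E2 libraries, against 2.98, 3.69 and 3.41 CPM in the PBS E2 libraries. Its log2 fold change was 1.55 ± 0.33, with an adjusted p of 0.00187. Zbp1, a sensor of Z-form nucleic acid that can start necroptosis, had 4.18, 8.41 and 12.3 CPM in the DOX E2 libraries, against 2.70, 2.71 and 2.096 CPM in the PBS E2 libraries. Its log2 fold change was 1.73 ± 0.46, with an adjusted p of 0.00754, and the groups did not overlap. Mx2 rose by a log2 fold change of 1.12 ± 0.27 and Dhx58, which encodes the RIG-I-like receptor LGP2, by 0.99 ± 0.23. Eif2ak2, which encodes the translation-blocking kinase PKR, rose by the small log2 fold change of 0.33 ± 0.09.

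Irf7 (7:141262706-141266481), which encodes the factor that amplifies type I interferon output, had 7.33, 17.8 and 23.2 CPM in the DOX E2 libraries, against 7.07, 6.78 and 6.44 CPM in the PBS E2 libraries. DOX E2 replicate 1 lay close to the PBS libraries. The log2 fold change was 1.25 ± 0.39 with an adjusted p of 0.0177, and the call was lost without DOX E2 replicate 3, without PBS E2 replicate 2 or without PBS E2 replicate 3. The calls of Oas2, Oasl1, Rsad2 and Ifi44 were lost when any single library other than DOX E2 replicate 1 was left out, and that of Oas3 when any of the 6 was. The other 8 calls held in all 6 such fits. The number of calls among the 37 was 9 without DOX E2 replicate 2, 9 without PBS E2 replicate 1 and 8 without PBS E2 replicate 2, against 14 with every library.

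Irf1 (11:53770014-53778374), which encodes a transcription factor downstream of interferon gamma, went the other way. It had 38.8, 40.1 and 54.1 CPM in the DOX E2 libraries, against 87.8, 102 and 100 CPM in the PBS E2 libraries. The log2 fold change was -1.12 ± 0.13 with an adjusted p of 2.44e-05, the smallest of the 37 in this comparison. Stat2 (10:128270559-128292849), the STAT that is specific to type I and type III interferon, had 46.1, 55.8 and 78.3 CPM in the DOX E2 libraries and 78.0, 57.1 and 65.3 CPM in the PBS E2 libraries. Those groups overlapped, with a log2 fold change of -0.15 ± 0.21 and an adjusted p of 0.591. Of the 3 Ifit genes, the 2 guanylate-binding protein genes, the 3 genes of the ISG15 system and the 3 genes of antigen processing (Psmb8, Psmb9 and Tap1), 0 passed under E2 in edgeR, and 0 had an unadjusted p under 0.05. Isg15, which encodes the ubiquitin-like protein, had a log2 fold change of 0.92 ± 0.45 with an adjusted p of 0.112.

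**Figure D2:**
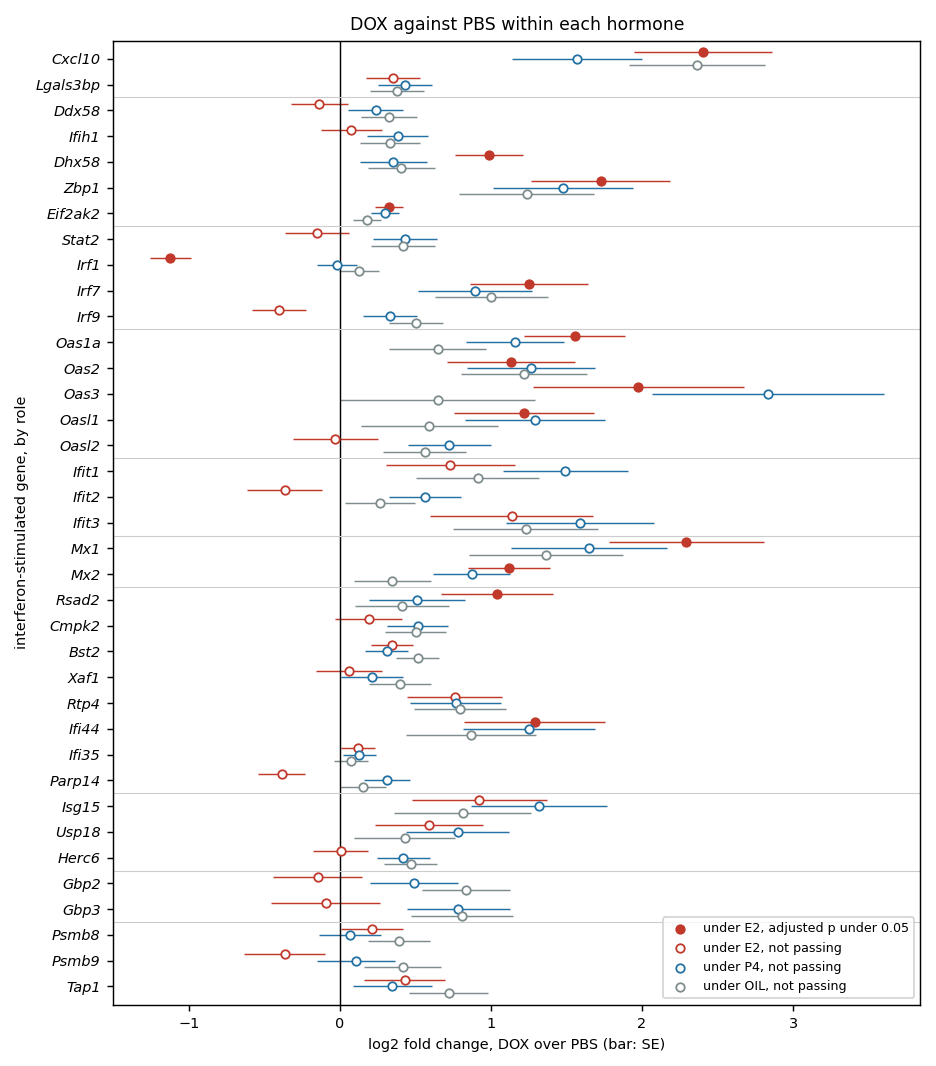
Points are log2 fold changes of DOX over PBS for each gene under E2 (red), P4 (blue) and OIL (grey), with the SE as a bar, from edgeR; filled points had an adjusted p under 0.05. Cxcl10 lies to the right under every hormone, while Irf1 lies at -1.12 under E2 and near 0 under P4 and OIL.

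Under P4 nearly all of the 37 had positive log2 fold changes for DOX, and no call was made. Here 0 of the 37, and 0% of all genes, had an adjusted p under 0.05 in edgeR's quasi-likelihood test. At an unadjusted p under 0.05 the count was 23 of 37 genes (62.2%), against 5.31% of all genes, and DESeq2 and limma voom called 0 of the 37 after adjustment. The log2 fold change was above 0 for 36 of 37 genes, against 48.2% of all genes, with a median of 0.51. In 17 of 37 every DOX P4 library was above every PBS P4 library, which held for 7.68% of all genes.

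Cxcl10 had 7.96, 2.82 and 3.87 CPM in the DOX P4 libraries, against 1.84, 1.51 and 1.56 CPM in the PBS P4 libraries, with a log2 fold change of 1.57 ± 0.43 and an adjusted p of 0.882. The groups did not overlap, with DOX P4 replicate 1 the highest. Oas3 had 2.67, 0.301 and 1.66 CPM in the DOX P4 libraries, against 0.180, 0.216 and 0.236 CPM in the PBS P4 libraries, with a log2 fold change of 2.83 ± 0.77 and an adjusted p of 0.882. Ifit1, which encodes a protein that binds RNA lacking the host's cap methylation, had 21.0, 6.54 and 15.9 CPM in the DOX P4 libraries, against 6.52, 4.57 and 4.30 CPM in the PBS P4 libraries. In both genes DOX P4 replicate 2 stood close to the PBS libraries. Irf7 had 35.0, 13.1 and 23.5 CPM in the DOX P4 libraries and 13.2, 11.6 and 13.7 CPM in the PBS P4 libraries, which overlapped. Irf1 had 68.4, 65.2 and 71.7 CPM in the DOX P4 libraries and 75.9, 66.4 and 66.0 CPM in the PBS P4 libraries, a log2 fold change of -0.02 ± 0.13.

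Under OIL, with no hormone, all 37 log2 fold changes for DOX were positive, led by Cxcl10, and again 0 of the 37 were called by edgeR, against 0.0129% of all genes, and 15 of 37 (40.5%) had an unadjusted p under 0.05, against 8.09% of all genes. DESeq2's Wald test called 1 of the 37, Cxcl10, with an adjusted p of 0.00128, and limma voom called 0. A log2 fold change above 0 was found for 48.9% of all genes, and the median of the 37 was 0.50. In 15 of 37 the DOX OIL libraries all lay above the PBS OIL libraries, against 6.6% of all genes.

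Cxcl10 had 4.35, 8.21 and 2.32 CPM in the DOX OIL libraries, against 1.16, 1.02 and 0.699 CPM in the PBS OIL libraries, without overlap. The log2 fold change was 2.36 ± 0.45 and the adjusted p in edgeR was 0.201. Bst2, which encodes tetherin, the membrane protein that holds budding virions, had 53.0, 78.2 and 64.5 CPM in the DOX OIL libraries, against 45.6, 47.2 and 44.1 CPM in the PBS OIL libraries. Its log2 fold change was 0.52 ± 0.14 with an adjusted p of 0.564. Oas2 had 15.4, 36.6 and 14.5 CPM in the DOX OIL libraries, against 7.62, 12.3 and 8.72 CPM in the PBS OIL libraries, a log2 fold change of 1.22 ± 0.42 with an adjusted p of 0.564. In all 3 genes DOX OIL replicate 2 was the highest library. Irf7 had 25.7, 43.9 and 19.5 CPM in the DOX OIL libraries and 13.5, 16.6 and 14.3 CPM in the PBS OIL libraries, again without overlap. Stat2 had 69.0, 83.0 and 50.5 CPM in the DOX OIL libraries and 45.9, 53.5 and 52.2 CPM in the PBS OIL libraries, which overlapped.

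**Figure D3:**
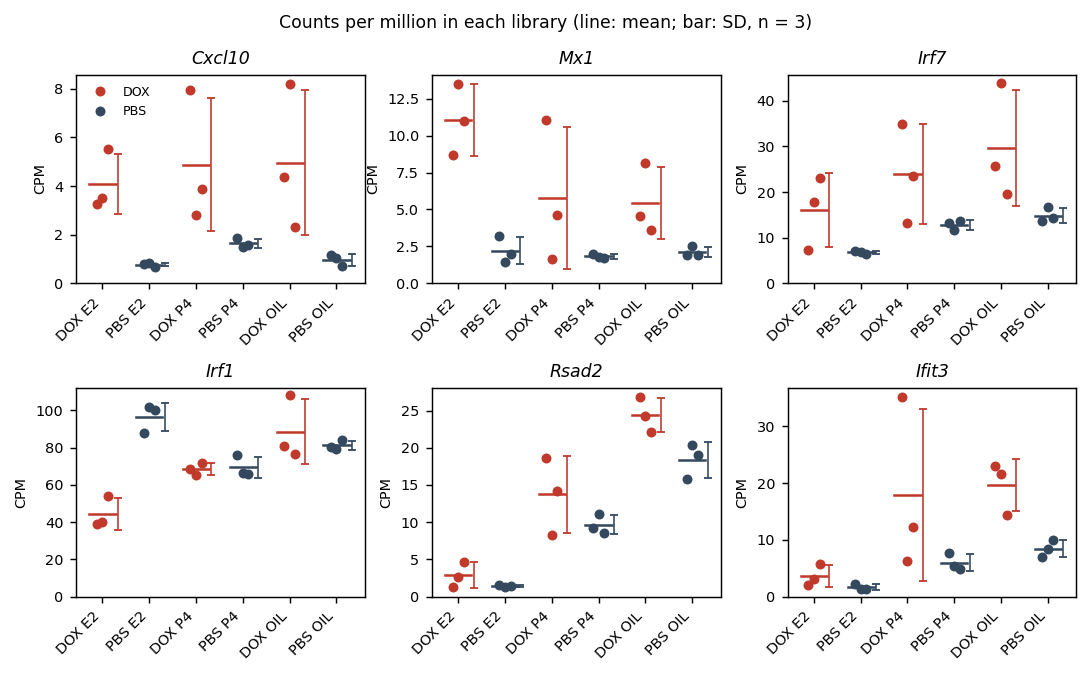
CPM of 6 interferon-stimulated genes in each of the 18 libraries (points), with the group mean as a line and the SD of 3 libraries as a bar; DOX is red and PBS dark blue. Cxcl10 and Mx1 are higher with DOX under each hormone by mean, Irf1 is lowest in the DOX E2 libraries, and Rsad2 and Ifit3 are low in both E2 groups.

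Averaged over the 3 hormones, DOX raised 22 of the 37 genes and lowered 1, against 8.35% of all genes higher and 10.3% lower (18.6% either way). The number of calls, 23, was 19 to 25 when any of the 18 libraries was left out. Cxcl10 rose most, with a log2 fold change of 2.11 ± 0.26 and an adjusted p of 0.000263. Mx1 rose by 1.77 ± 0.30, Zbp1 by 1.48 ± 0.26 and Oas1a by 1.12 ± 0.19 on the same scale, with adjusted p of 0.00164, 0.00228 and 0.00167. Irf7 rose by 1.05 ± 0.22 and Isg15 by 1.02 ± 0.26. By role, the averaged comparison called both secreted proteins higher (Cxcl10 and Lgals3bp), 3 of 5 sensors, 4 of 5 Oas genes, both Mx genes, 2 of 3 Ifit genes, 2 of 3 genes of the ISG15 system and 5 of 8 other effectors. Of the 2 guanylate-binding protein genes 0 were called in edgeR, with both at an unadjusted p under 0.05, and it called 1 of 3 genes of antigen processing, Tap1. Among the 4 factors Irf7 rose, Irf1 fell by 0.34 ± 0.08, and Stat2 (0.23 ± 0.12, adjusted p 0.197) and Irf9 (0.14 ± 0.10, adjusted p 0.343) did not pass. The averaged fall of Irf1 came from E2, with little change under P4 and OIL. The calls of Rsad2, Cmpk2, Usp18 and Tap1 were lost in 8 to 13 of the 18 fits that left out a library, and that of Irf1 was lost with an adipocyte marker score as a covariate. In 27 of 37 genes (73%) the log2 fold change was above 0 under all 3 hormones, against 15.7% of all genes.

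E2 lowered most of these genes with either drug treatment. With DOX, E2 against OIL called 22 of the 37 lower and 2 higher, against 37.5% and 35.1% of all genes (72.6% either way). With PBS it called 21 lower and 2 higher, against 31.9% and 29.6% of all genes (61.4% either way). The median log2 fold change was -0.94 with DOX and -0.87 with PBS, against -0.08 and -0.09 over all genes. Lower in both arms were 20 genes, which is 20 of the 22 with DOX and 20 of the 21 with PBS. That is 54.1% of the 37, against 26.7% of all genes. They include all 3 Ifit genes, the RNA sensors Ddx58 (RIG-I), Ifih1 (MDA5) and Dhx58, and Irf7, Usp18, Herc6, Gbp3, Psmb9 and Tap1. Irf1 and Gbp2 were called lower with DOX alone, as were 10.8% of all genes, and Oas1a with PBS alone, as were 5.17%. Of those, Irf1 is the member whose E2 change differed between the arms by the interaction test given further on.

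Rsad2 (12:26442746-26456452), which encodes viperin, an enzyme that makes a chain-terminating nucleotide, had 1.29, 2.68 and 4.68 CPM in the DOX E2 libraries, against 26.8, 24.3 and 22.2 CPM in the DOX OIL libraries. With PBS it had 1.59, 1.25 and 1.36 CPM in the E2 libraries, against 15.7, 20.3 and 19.0 CPM in the OIL libraries. The log2 fold changes were -3.06 ± 0.35 with DOX and -3.69 ± 0.37 with PBS, with adjusted p of 8.64e-07 and 4.65e-07, and the groups were far apart in both arms. Cmpk2, the mitochondrial nucleotide kinase gene, had 2.94, 3.82 and 3.86 CPM in the DOX E2 libraries, against 15.9, 19.7 and 11.9 CPM in the DOX OIL libraries. With PBS it had 2.76, 3.63 and 2.99 CPM in the E2 libraries, against 8.83, 11.7 and 13.0 CPM in the OIL libraries. Its log2 fold changes were -2.16 ± 0.22 with DOX (adjusted p 2.3e-07) and -1.84 ± 0.22 with PBS (adjusted p 2.7e-06). Ifit2 had 4.60, 5.26 and 9.78 CPM in the DOX E2 libraries, against 26.2, 39.997 and 30.2 CPM in the DOX OIL libraries. With PBS it had 8.83, 9.49 and 7.12 CPM in the E2 libraries, against 25.1, 27.9 and 27.3 CPM in the OIL libraries. Ifit2 fell by 2.28 ± 0.25 with DOX and by 1.66 ± 0.24 with PBS on the log2 scale. Xaf1, which encodes a promoter of cell death, had 5.89, 7.38 and 12.2 CPM in the DOX E2 libraries, against 32.2, 37.8 and 28.5 CPM in the DOX OIL libraries. With PBS it had 7.24, 10.03 and 7.39 CPM in the E2 libraries, against 21.4, 25.9 and 27.3 CPM in the OIL libraries. In each of these 4 genes no E2 library reached any OIL library of its arm, and all 8 calls held when any library was left out.

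Genes that E2 raised or that did not pass were of several roles. Bst2 rose in both arms, with 85.4, 83.4 and 91.9 CPM in the DOX E2 libraries, against 53.0, 78.2 and 64.5 CPM in the DOX OIL libraries, and with 64.7, 62.8 and 78.0 CPM in the PBS E2 libraries, against 45.6, 47.2 and 44.1 CPM in the PBS OIL libraries. Its log2 fold changes were 0.41 ± 0.14 with DOX and 0.58 ± 0.14 with PBS, and the call with DOX was lost without DOX OIL replicate 1 or DOX E2 replicate 3. Ifi35 rose with DOX by 0.30 ± 0.11, a call lost without DOX OIL replicate 1, DOX OIL replicate 3 or DOX E2 replicate 3. Irf9 rose with PBS, with 84.1, 71.3 and 67.5 CPM in the PBS E2 libraries, against 38.1, 44.1 and 45.5 CPM in the PBS OIL libraries. Its log2 fold change there was 0.80 ± 0.18 with an adjusted p of 0.00101, a call that held when any library was left out, and with DOX it was -0.10 ± 0.18 (adjusted p 0.613). Cxcl10 did not pass, with log2 fold changes of -0.28 ± 0.41 with DOX and -0.32 ± 0.48 with PBS. Mx1 did not pass either, at 1.02 ± 0.49 with DOX (adjusted p 0.0695) and 0.09 ± 0.52 with PBS. Isg15 passed in neither arm (0.48 ± 0.44 with DOX and 0.37 ± 0.46 with PBS), nor did Zbp1 (0.01 ± 0.43 and -0.48 ± 0.46). With DOX, the calls of Dhx58 and Irf7 were each lost in 3 of 6 fits that left out a library, and that of Mx2 in 1, without DOX OIL replicate 2. With PBS, the calls of Irf7 and Oas1a were lost in 2 of 6, that of Ifit1 in 3 and that of Tap1 in 1.

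**Figure D4:**
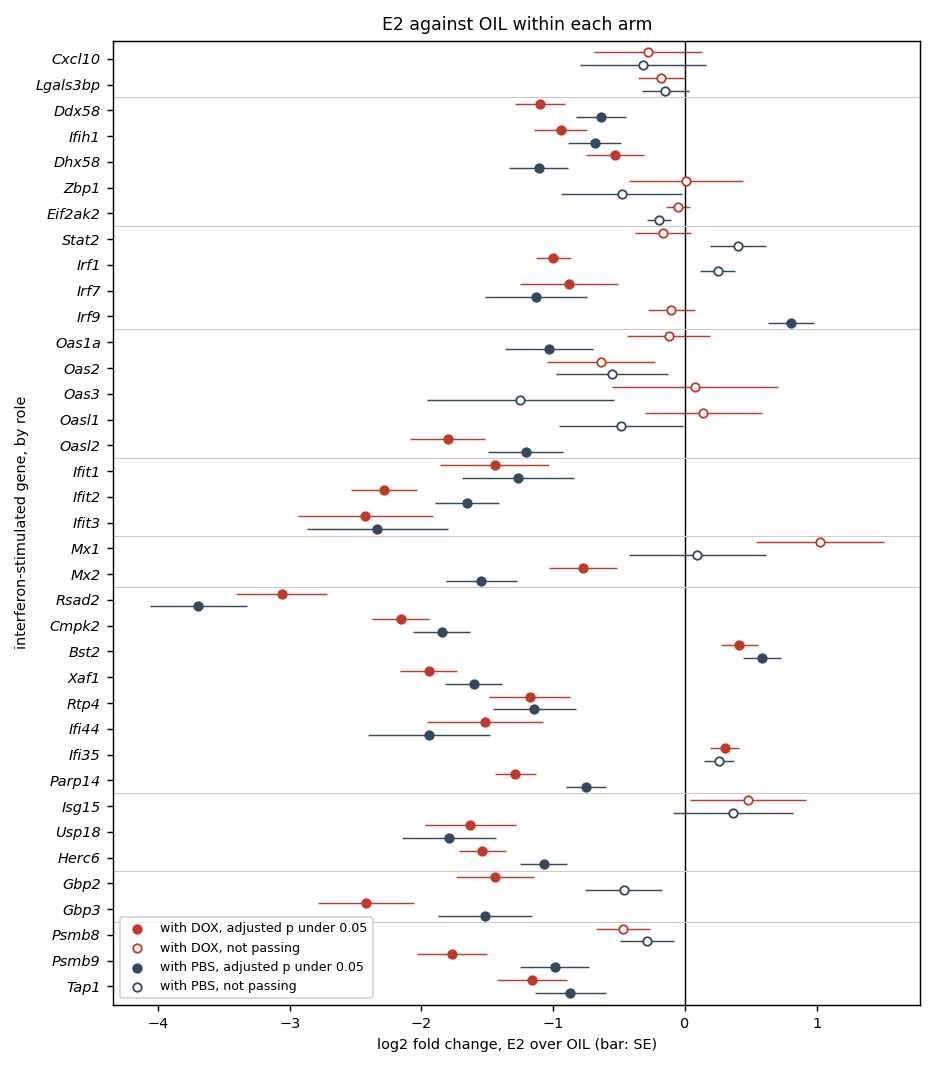
Points are log2 fold changes of E2 over OIL for each gene with DOX (red) and with PBS (dark blue), with the SE as a bar, from edgeR; filled points had an adjusted p under 0.05. Most genes lie left of 0 in both arms, with Rsad2 farthest at -3.06 and -3.69, and Bst2 lies right of 0 in both.

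P4 changed few of the 37. With DOX, P4 against OIL called 1 higher and 2 lower, against 14.7% and 15.1% of all genes (29.8% either way). With PBS it called 1 higher and 4 lower, against 16.2% and 15.6% of all genes (31.8% either way). Ddx58, which encodes the RNA sensor RIG-I, rose in both arms. It had 86.2, 73.0 and 103 CPM in the DOX P4 libraries, against 45.7, 61.1 and 45.02 CPM in the DOX OIL libraries, and 65.5, 75.4 and 82.1 CPM in the PBS P4 libraries, against 34.1, 40.7 and 46.4 CPM in the PBS OIL libraries. Its log2 fold changes were 0.79 ± 0.19 (adjusted p 0.00518) and 0.88 ± 0.19 (adjusted p 0.00272), and E2 lowered it by 1.10 ± 0.19 with DOX and 0.64 ± 0.19 with PBS. Ifit2 was lower with P4, at 26.3, 17.7 and 17.5 CPM in the DOX P4 libraries and 13.5, 13.2 and 14.9 CPM in the PBS P4 libraries, with log2 fold changes of -0.65 ± 0.23 and -0.95 ± 0.24. With PBS, Parp14 fell to 68.3, 61.0 and 63.7 CPM in the P4 libraries, against 83.9, 93.4 and 97.9 CPM in the OIL libraries. Oas3, with 0.180, 0.216 and 0.236 CPM in the PBS P4 libraries, against 0.758, 2.09 and 0.420 CPM in the PBS OIL libraries, had a log2 fold change of -2.34 ± 0.78. With DOX, Irf1 had a log2 fold change of -0.37 ± 0.13 for P4. The number of calls was 1 to 6 with DOX and 2 to 5 with PBS when a library was left out: with DOX it was 6 without DOX P4 replicate 1, 5 without DOX OIL replicate 3 and 1 without DOX P4 replicate 3. With PBS it was 3 without PBS OIL replicate 2, PBS OIL replicate 3 or PBS P4 replicate 1, and 2 without PBS P4 replicate 2 or PBS P4 replicate 3. Only the Ddx58 calls held in every such fit in both arms, beside that of Ifit2 with PBS. With the adipocyte marker score as a covariate, the calls with PBS were 1 in place of 5, and the median log2 fold change of the 37 was 0.083 in place of -0.27.

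The interaction of E2 with DOX asks whether the DOX change under E2 differed from that under OIL. It called 2 of the 37, both lower, against 10.1% of all genes higher and 12.8% lower (22.9% either way). Irf1 was the first, with an interaction of -1.25 ± 0.19 on the log2 scale and an adjusted p of 0.000563. Under E2 it was lower with DOX, as given above, while under OIL it had 81.2, 109 and 76.3 CPM in the DOX libraries and 80.2, 79.3 and 84.0 CPM in the PBS libraries, which overlapped. Irf9 (14:55603571-55610030), the DNA-binding partner of STAT2, had 44.2, 57.5 and 66.9 CPM in the DOX E2 libraries, against 84.1, 71.3 and 67.5 CPM in the PBS E2 libraries. Under OIL it had 54.6, 75.2 and 51.2 CPM in the DOX libraries, against 38.1, 44.1 and 45.5 CPM in the PBS libraries. The DOX and PBS libraries did not overlap, narrowly under E2 where DOX was lower, and under OIL where DOX was higher, with an interaction of -0.91 ± 0.25 and an adjusted p of 0.0177. That call was lost without DOX OIL replicate 2, where the adjusted p was 0.0501, and with the adipocyte score as a covariate, where it was 0.0715. The number of calls was 1 without DOX OIL replicate 2 and 6 without DOX E2 replicate 3. Cxcl10 had an interaction of 0.04 ± 0.61 (adjusted p 0.97). For P4 with DOX, 0 of the 37 were called in edgeR, 1 at an unadjusted p under 0.05, and 0 by DESeq2 and by limma voom, against 0.00645% of all genes. The genes with the smallest p there were Oas3, Mx2 and Cxcl10, with interactions of 2.18 ± 1.01, 0.52 ± 0.36 and -0.80 ± 0.61.

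Within each DOX group the genes varied together, library by library. DOX E2 replicate 3 held the highest value of its group in 33 of 37 genes, DOX P4 replicate 1 in 33 and DOX OIL replicate 2 in 35. Among all genes those libraries were the highest of their group in 35.3%, 32% and 31.5%. The lowest values were as concentrated: DOX E2 replicate 1 was lowest in 31 genes, DOX P4 replicate 2 in 33 and DOX OIL replicate 3 in 33. The mean log2 CPM over the 37 was 3.16 to 4.01 in the DOX E2 libraries, against 3.04 to 3.12 in the PBS E2 libraries. It was 3.78 to 4.79 in the DOX P4 libraries, against 3.60 to 3.73 in the PBS P4 libraries, and 4.13 to 4.95 in the DOX OIL libraries, against 3.74 to 4.05 in the PBS OIL libraries. Every DOX library was thus above every PBS library of its hormone by this mean. The SD of log2 CPM was larger with DOX in 31 of 37 genes under E2 (83.8%, against 38.9% of all genes), in 34 under P4 (91.9%, against 47%) and in 32 under OIL (86.5%, against 38.7%). The median SD under P4 was 0.43 with DOX and 0.14 with PBS. Across the 18 libraries, after subtracting group means, all 666 pairs of these genes had a correlation above 0, with a median of 0.69, against a median of 0 over all gene pairs. That is a description: the pairs share libraries and depth. Counts of the 37 by rank, by SD or by the sign of the DOX change carry the same limit. Genes that move together are not 37 separate observations. Markers of immune cells differed between the same libraries. In DOX OIL replicate 2 the summed leukocyte markers were 208 CPM, against 101 and 127 CPM in replicates 1 and 3, macrophage markers 341 CPM, against 142 and 192 CPM, and T cell markers 26.6 CPM, against 13.0 CPM in each of the others. PBS OIL replicate 2 had more leukocyte (289 CPM) and macrophage markers (360 CPM) than DOX OIL replicate 2, and fewer T cell markers (18.2 CPM). Its mean log2 CPM over the 37 was 4.05, below every DOX OIL library. DOX E2 replicate 1 was lowest of its group in leukocyte (107 CPM), macrophage (175 CPM), T cell (6.09 CPM) and NK cell markers (6.30 CPM). DOX E2 replicate 3 was the highest in T cell (13.1 CPM) and NK cell markers (11.2 CPM), but not in leukocyte or macrophage markers. DOX P4 replicate 1 was highest in NK cell markers, at 20.9 CPM, against 9.93 and 14.7 CPM in replicates 2 and 3, and lowest in macrophage markers, at 209.5 CPM. The part of these cells in the spread was not tested.

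Per kilobase of exon, levels in the PBS OIL libraries ran from 50.6 CPM per kb for Bst2, 23.7 for Lgals3bp, 23.6 for Gbp2 and 20.4 for Irf1 down to 0.426 for Cxcl10 and 0.154 for Oas3. Cxcl10 was read from 265 counts over the DOX E2 libraries and 57 over the PBS E2 libraries, and Oas3 from 113 over the DOX P4 libraries and 14 over the PBS P4 libraries, so their folds rest on few counts in the PBS groups.

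The ligands themselves were almost unread. Ifnb1, Ifna1, Ifna4, Ifna5 and the interferon lambda genes Il28a and Il28b had a count of 0 in all 18 libraries, and Ifna2 had 1 count in all. Ifnk had 3 counts in all and Ifnz 2. Ifne, the epithelial interferon of the female tract, had 76 counts in all: 19 in the DOX E2 libraries and 12 in the PBS E2 libraries, 5 and 9 under P4 with DOX and with PBS, and 13 and 18 under OIL with DOX and with PBS. Ifng, made by NK and T cells, had 60 counts: 12 with DOX and 9 with PBS under E2, 11 and 3 under P4, and 15 and 10 under OIL. None of these 11 genes passed the filter, so none was tested. A count of 0 over all 18 libraries still allows an expected count of up to about 3 over them together, so absence cannot be read from it.

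Of 6 receptor genes, E2 lowered 5 with DOX and 5 with PBS, against 37.5% and 31.9% of all genes. Il10rb, the shared chain of the interleukin 10 and interferon lambda receptors, fell by 1.42 ± 0.13 with DOX and by 1.08 ± 0.13 with PBS. Il28ra, the chain specific to interferon lambda, fell by 1.32 ± 0.20 and 1.13 ± 0.20, and Ifnar1, a chain of the type I receptor, fell by 0.48 ± 0.11 and 0.70 ± 0.11. Ifnar2 was lower with DOX (-0.38 ± 0.10) and did not pass with PBS (-0.22 ± 0.10, adjusted p 0.0812). Ifngr1 was lower in both arms (-0.24 ± 0.09 and -0.35 ± 0.09), and Ifngr2 with PBS (-0.47 ± 0.11) and not with DOX (0.04 ± 0.11, adjusted p 0.729). Under E2, DOX raised Ifngr2 by 0.38 ± 0.11 and lowered Il10rb by 0.36 ± 0.13 and Il28ra by 0.53 ± 0.20. Tyk2, the kinase of the type I and type III receptors, had 17.6, 20.6 and 23.7 CPM in the DOX E2 libraries, against 61.6, 68.8 and 63.9 CPM in the DOX OIL libraries. With PBS it had 28.6, 32.95 and 27.6 CPM in the E2 libraries, against 65.1, 68.8 and 63.3 CPM in the OIL libraries. It fell with E2 by 1.65 ± 0.10 and 1.15 ± 0.10, and with DOX under E2 by 0.52 ± 0.10, and its E2 by DOX interaction passed at -0.50 ± 0.14 (adjusted p 0.021). Jak1 rose with E2 in both arms, by 0.83 ± 0.10 and 0.71 ± 0.10, and Jak2 by 0.53 ± 0.14 and 0.57 ± 0.14. Stat3 rose by 1.53 ± 0.13 and 2.21 ± 0.13.

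Among 12 genes that brake the response or clear nucleic acids, E2 raised 4 and lowered 4 with DOX, and raised 3 and lowered 4 with PBS. Those counts are near the shares of all genes, 35.1% raised and 37.5% lowered with DOX and 29.6% and 31.9% with PBS. Socs1, the inhibitor of JAK kinases, had 87.4, 74.1 and 104 CPM in the DOX E2 libraries, against 5.39, 5.05 and 4.32 CPM in the DOX OIL libraries. With PBS it had 83.6, 34.6 and 57.1 CPM in the E2 libraries, against 6.15, 4.27 and 3.78 CPM in the OIL libraries. Its log2 fold changes were 4.16 ± 0.29 with DOX and 3.63 ± 0.28 with PBS, without overlap in either arm. Socs3, which binds cytokine receptors and JAKs, rose with E2 by 3.66 ± 0.36 and 3.89 ± 0.36, and Ptpn2, a phosphatase of JAKs and STATs, by 1.93 ± 0.11 and 1.47 ± 0.11. Under E2 the difference between DOX and PBS passed for Ptpn2 (0.49 ± 0.10, adjusted p 0.00167) and not for Socs1 (0.59 ± 0.24, adjusted p 0.064) or Socs3 (-0.29 ± 0.32, adjusted p 0.493). Samhd1, which destroys free nucleotides, fell with E2 by 1.77 ± 0.18 and 1.12 ± 0.18. Of 12 genes of nucleic acid sensing, E2 raised 4 and lowered 3 in each arm, beside the same shares of all genes. The cGAS gene, listed as E330016A19Rik, rose by 1.49 ± 0.14 with DOX and 1.65 ± 0.14 with PBS, and Tmem173, which encodes its partner STING, rose in both arms, with PBS by 1.27 ± 0.18. Tlr3, the receptor for double-stranded RNA, fell by 1.33 ± 0.16 and 1.13 ± 0.16. DOX called 0 of these 12 in edgeR when averaged over the hormones (2 at an unadjusted p under 0.05), and 1 higher under E2, the adaptor gene Ticam1 (0.71 ± 0.16). Of all genes, 18.6% were called when averaged (33.8% at an unadjusted p under 0.05), and 20.4% were called higher under E2.

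**Figure D5:**
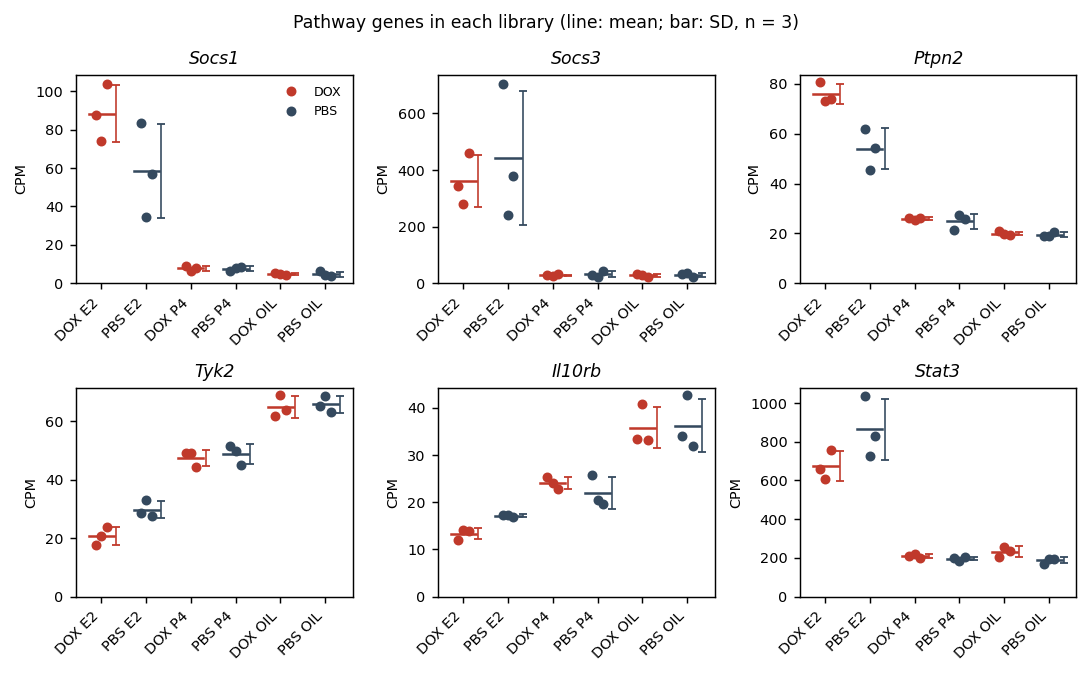
CPM of 6 genes of interferon signalling in each of the 18 libraries (points), with the group mean as a line and the SD of 3 libraries as a bar; DOX is red and PBS dark blue. Socs1, Socs3, Ptpn2 and Stat3 are high and Tyk2 and Il10rb are low in both E2 groups.

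A wider list of 47 other interferon-stimulated genes was fixed apart from the 37, also with earlier results known. Averaged over hormones, DOX raised 9 and lowered 1, among them Oas1g (1.17 ± 0.22), Apol9a (0.88 ± 0.24) and Parp9 (0.24 ± 0.07) higher and Ifitm2 (-0.26 ± 0.05) lower. Of all genes, 8.35% were higher and 10.3% lower in that comparison. Under E2 alone DOX raised 2 and lowered 6, against 20.4% and 20.6% of all genes, with Oas1g (1.55 ± 0.39) and Isg20 (0.81 ± 0.23) higher, and Ifitm2 (-0.54 ± 0.09) and the guanylate-binding protein gene Gbp7 (-0.91 ± 0.23) among the lower. E2 lowered 31 and raised 2 with DOX, and lowered 23 and raised 1 with PBS, against 37.5% lower and 35.1% higher of all genes with DOX and 31.9% and 29.6% with PBS. Samd9l fell by 1.61 ± 0.12 and 1.31 ± 0.11, and Sp100 by 2.19 ± 0.23 and 1.86 ± 0.23. The E2 by DOX interaction called 4, all lower, against 22.9% of all genes called and 12.8% called lower: Gbp7 (-1.52 ± 0.31), the immunity-related GTPase genes Irgm2 (-1.77 ± 0.41) and Igtp (-1.37 ± 0.40), and Ifitm2 (-0.47 ± 0.13).

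Markers of other cells moved in some of these comparisons. All 6 adipocyte markers were lower with DOX under E2, where 20.6% of all genes were called lower. Their summed level was 0.980 to 67.6 CPM in the DOX E2 libraries and 76.3 to 1387 CPM in the PBS E2 libraries. It was 4.56 to 97.7 CPM with DOX and 6.30 to 94.4 CPM with PBS under P4, and 54.0 to 188 CPM with DOX and 232 to 915 CPM with PBS under OIL, and no marker was at 0 throughout a group. With the adipocyte score as a covariate, DOX under E2 called 16 of the 37. Also under E2, the 3 stromal markers summed to 1276 to 2204 CPM with DOX and 2724 to 4193 CPM with PBS, with Dcn lower and Pdgfra higher. The 4 epithelial markers summed to 584 to 852 CPM with DOX and 376 to 562 CPM with PBS, with Krt8 and Cdh1 higher. The 3 listed markers of plasmacytoid dendritic cells, which make type I interferon, did not move together under E2. With DOX, Klk1 rose (2.29 ± 0.48), Siglech fell (-2.38 ± 0.65) and Ccr9 did not pass (-0.02 ± 0.58). Their sum, 26.2 to 40.3 CPM with DOX and 3.09 to 13.2 CPM with PBS, therefore cannot be read as more of these cells. Klk1 also rose with E2 against OIL, by 7.19 ± 0.68 with DOX and 4.03 ± 0.61 with PBS. The part of these markers in the DOX result was not tested. With DOX, E2 lowered 5 of 6 NK cell markers, against 37.5% of all genes. Their sum was 6.30 to 11.2 CPM in the DOX E2 libraries and 16.9 to 23.1 CPM in the DOX OIL libraries. With PBS, E2 called 0 of the 6 in edgeR (0 at an unadjusted p under 0.05), against 61.4% of all genes called either way. The sums there were 8.74 to 14.98 CPM in the E2 libraries and 15.3 to 21.4 CPM in the OIL libraries. With DOX, 3 of 6 T cell markers were also lower with E2, beside the same 37.5% of all genes. Their sum was 6.09 to 13.1 CPM in the E2 libraries and 13.0 to 26.6 CPM in the OIL libraries. The part of the NK and T cell markers in the E2 result was not tested. Of 4 pan-leukocyte and 6 macrophage markers, 0 were called for DOX under any hormone in edgeR, and 2 macrophage markers had an unadjusted p under 0.05, both under OIL. Of all genes, DOX called 41% under E2, 0% under P4 and 0.0129% under OIL, so a count of 0 under P4 or OIL says little. The pan-leukocyte and macrophage sums under E2 were 107 to 164 and 175 to 269 CPM with DOX, and 107 to 127 and 225 to 261 CPM with PBS. All 5 uterine markers were read in every group, with sums of 875 to 1485 CPM.

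Some values could hold reads of neighbours, since the sources used here do not say whether counting used strand. Exons of Cxcl10 share 133 bases (5.91% of its exons) with Art3 on the other strand, those of Irf1 share 3.4% with Gm17334, those of Psmb8 share 14.7% with Gm20496, and Irf9 shares 2.28% with Rnf31 on the same strand. Oas1a with Oas1g, Ifit3 with its copy listed as I830012O16Rik, Gbp2 with Gbp3, Mx1 with Mx2 and Oasl1 with Oasl2 are related in sequence, so how reads were split between them is uncertain.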

How the data were processed

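Per the labels' protocols, Trizol extracts of whole uterus went into a TruSeq kit for total RNA. The authors deposited raw counts, whole numbers per gene symbol, for 18 libraries and 22238 symbols, of which 2904 were 0 throughout. Tools named, per the submitters' processing notes, are HISAT2 2.1.0, StringTie 1.3.4d, SAMtools 1.6, Trimmomatic 0.36, FastQC 0.11.5, R 3.4.4 and DESeq2 1.18.1, with build GRCm38. The counting tool, annotation, strand and multi-mapping settings were not given in the sources used here.

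Libraries were grouped by drug and hormone labels. With edgeR 4.0.16 in R 4.3.3, filterByExpr left 15494 genes, libraries were scaled by TMM, and a robust quasi-likelihood model was fitted to the 6 groups (12 residual degrees of freedom). The 10 comparisons were contrasts of it, with Benjamini-Hochberg adjustment over all genes tested and a threshold of 0.05. SE is the absolute log2 fold change over the square root of F. Steps were tested on simulated data. The members, lists and tests were chosen with earlier results of these data known. All 37 members may be named. Values per library are given for Cxcl10, Irf7, Irf1, Stat2 and up to 4 called members with the smallest p per comparison (up to 3 where none was called). Of other lists, up to 4 genes per comparison and the ligands, receptors and signalling genes were eligible. Older symbols were matched through the reference table; Cxcl11, Helz2 and Nlrc5 were not matched. A gene of the signalling list is not reported here. Gene positions are from GENCODE M21. Alternatives were DESeq2 1.42.0 size factors and Wald test, limma 3.58.1 voom with quality weights, no low-count filter, a stricter one (at least 1 CPM in 3 libraries), only the groups compared, a replicate block, an adipocyte marker score as covariate, and leaving out each library. No 2 libraries of a group were copies. Counts carry no molecular identifiers, so counting error is a lower limit of the error.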

Additional observations from a re-analysis of the deposited data

Results flagged for a closer look

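Irf1 and Irf9 were singled out because the effect of DOX differed between E2 and OIL by the interaction term of the edgeR model. For Irf1 the interaction was -1.25 ± 0.19 (SE) on the log2 scale with an adjusted p of 0.000563. DOX against PBS was -1.12 ± 0.13 under E2 and 0.13 ± 0.13 under OIL, and all 3 DOX E2 libraries lay below all 3 PBS E2 libraries. For Irf9 the interaction was -0.91 ± 0.25 with an adjusted p of 0.0177. DOX against PBS was -0.40 ± 0.18 under E2 (adjusted p 0.0781) and 0.50 ± 0.18 under OIL (adjusted p 0.564), so neither difference passed alone.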

How the results depend on the processing

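No called gene changed sign under any alternative, and the counts of calls among the 37 genes kept within 1.5 times of the value reported except as follows. For DOX under OIL, DESeq2's Wald test called 1, against 0. For P4 with DOX, where 3 were called, DESeq2 size factors, no low-count filter, the replicate block and the fit of only the groups compared each gave 1, and DESeq2's Wald test gave 5. For P4 with PBS, where 5 were called, the adipocyte covariate gave 1 and turned the median log2 fold change to 0.083, against -0.27; the cause was not tested. Leaving out a library gave 8 to 15 calls for DOX under E2 (14 with all), 0 to 0 for DOX under P4 and under OIL, 19 to 25 averaged (23), 22 to 24 for E2 with DOX (24), 20 to 24 for E2 with PBS (23), 1 to 6 for P4 with DOX (3), 2 to 5 for P4 with PBS (5), 1 to 6 for E2 by DOX (2) and 0 to 0 for P4 by DOX. Replicate numbers did not pair the libraries: 12 of 45 same-numbered pairs correlated above 0.1 (from -0.28 to 0.36), and 7 of 18 libraries correlated best with their own number. With the replicate block, 10 genes were called for DOX under E2, 22 averaged, 22 and 23 for E2 with DOX and with PBS, and 4 for P4 with PBS. The fit of only the groups compared was not made for the averaged comparison. Depth limits Cxcl10, Oas3 and the ligands most.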
